A study of Homo sapiens with 4 samples.

Results

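A set of 10 genes of the NF-kB system was followed in A549, a human cell line derived from a lung adenocarcinoma, after removal of glutamine from the medium. They were taken by name: the subunits NFKB1, NFKB2, REL, RELA and RELB, the inhibitors NFKBIA, NFKBIE and NFKBIZ, and the feedback genes TNFAIP3 and BIRC3, which makes 10 of the 58560 genes with a matched transcript. All 10 passed the filter on low counts and are among the 24527 genes tested. RNA was measured by sequencing in 2 libraries of glutamine-deprived cells and 2 libraries of control cells. The deprived cells had been washed with PBS and kept in DMEM without glutamine and with 10% FBS. Their labels give 24 h for deprived replicate 1 and 25 h for deprived replicate 2, whereas the protocol gives 24 h for both. The control cells grew in DMEM with 10% FBS and their labels name no treatment. No source says that the libraries of a group came from separate cultures, so p-values measure only the spread between these libraries, which may be technical.

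NF-kB is a family of transcription factors that act as dimers of the subunits. In the canonical pathway, dimers such as that of NFKB1 (p50) and RELA (p65) are held in the cytoplasm by IkB proteins and released when the IKK complex marks these for destruction. In the noncanonical pathway, the kinase NIK accumulates and the NFKB2 precursor p100, which itself retains RELB, is cut to p52, so that the dimer of p52 and RELB can enter the nucleus. Many genes of the system, among them NFKBIA, TNFAIP3 and NFKB2, are known targets of NF-kB, which gives the pathway its feedback. In lung epithelium NF-kB is best known for the response to TNF, interleukin 1 and microbial products.

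Library totals were 123414592 and 120425759 counts in the deprived libraries and 101496318 and 101982373 counts in the control libraries. Levels are given as CPM, counts relative to the library's total after scaling by the trimmed mean of M-values (TMM). Of the 5 epithelial markers examined, the summed level was 2019 and 1730 CPM in deprived cells and 7570 and 7681 CPM in control cells, mostly from the keratins KRT8 and KRT18. EPCAM was at 0.498 and 0.756 CPM in deprived cells and at 2.21 and 2.70 CPM in control cells. CDH1 was at 6.16 and 4.99 CPM in deprived cells and at 42.7 and 37.8 CPM in control cells. Each of the 5 was called lower in deprived cells by edgeR. Of 7 alveolar type II markers, 5 (deprived) and 6 (control) were under 1 CPM, including all the surfactant genes examined. Of the label, alveolar basal epithelial, only the epithelial part was borne out, by keratins and not by surfactant genes. No marker of basal cells was examined. All 5 fibroblast and all 4 endothelial markers were under 1 CPM in every library. The 5 blood markers summed to 0.622 and 0.765 CPM in deprived cells and to 15.0 and 12.5 CPM in control cells, mostly from CD14. Among the alveolar type II markers, the lineage factor NKX2-1 was at 0.776 and 0.811 CPM in deprived cells and at 0.0175 and 0.0635 CPM in control cells, LAMP3 was at 2.59 and 3.03 CPM in deprived cells and at 0.420 and 0.0817 CPM in control cells, and ABCA3 was at 27.7 and 28.6 CPM in deprived cells and at 41.2 and 41.3 CPM in control cells. These and the epithelial and CD14 levels moved with the groups, and their part in the results below was not tested. In bulk RNA, fewer cells of a kind and less RNA per cell cannot be told apart.

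NFKB2 and RELB, the pair of the noncanonical pathway, had the largest fold changes of the 10 genes. In deprived cells NFKB2 was at 242 and 227 CPM, against 12.1 and 7.65 CPM in control cells. Its log2 fold change, deprived over control, was 4.57 ± 0.23 (SE), which is 23.8-fold (edgeR quasi-likelihood adjusted p = 3.37e-05). Both deprived libraries lay far above both controls, and the spread between replicates was small beside the difference. RELB was at 93.2 and 89.7 CPM in deprived cells, against 6.62 and 4.24 CPM in control cells. This was a log2 fold change of 4.07 ± 0.21, or 16.8-fold (edgeR adjusted p = 3.95e-05), with no overlap between groups. For both genes, control replicate 2 was the lowest library.

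The subunits of the canonical pathway were also higher, by smaller factors. NFKB1, which encodes p105 and its product p50, was at 82.9 and 78.6 CPM in deprived cells and at 33.9 and 30.1 CPM in control cells (log2 fold change 1.34 ± 0.09, edgeR adjusted p = 7.69e-05). RELA, which encodes the transactivating subunit p65, was at 37.5 and 40.9 CPM in deprived cells and at 18.4 and 17.2 CPM in control cells (1.14 ± 0.09, adjusted p = 0.000133). REL, which encodes c-Rel, was at 48.0 and 56.4 CPM in deprived cells and at 31.1 and 28.7 CPM in control cells (0.80 ± 0.10, adjusted p = 0.00115). In each of these 3 genes the deprived libraries stood above the controls without overlap, and REL had the smallest difference of the 5 subunits.

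The inhibitors did not behave alike. NFKBIE encodes IkB epsilon, a cytoplasmic inhibitor. It was at 70.9 and 60.3 CPM in deprived cells, against 12.5 and 10.7 CPM in control cells (log2 fold change 2.50 ± 0.12, edgeR adjusted p = 3.30e-05). NFKBIZ encodes IkB zeta, a nuclear member of the family that can also help transcription. It was at 47.1 and 43.0 CPM in deprived cells, against 31.4 and 30.1 CPM in control cells (0.55 ± 0.08, adjusted p = 0.00201). The groups did not overlap for either gene, but the NFKBIZ call was lost when libraries were scaled by their size only (0.21, adjusted p = 0.0657).

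NFKBIA, which encodes IkB alpha, the inhibitor known for its fast resynthesis after canonical activation, was the exception. It was at 125 and 103 CPM in deprived cells and at 120 and 115 CPM in control cells. The deprived libraries lay on either side of the controls. The log2 fold change was −0.04 ± 0.11 and did not pass the test (edgeR adjusted p = 0.765). The call depended on the scaling: with library size only NFKBIA was called lower (−0.38, adjusted p = 0.0127), while the value was negative under every scaling tried. The sign changed without deprived replicate 2, where the log2 fold change was 0.11 and was not called. Scaling by library size only also moved the median of all tested genes from −0.06 to −0.40, so the NFKBIA value there lay close to that of the median gene.

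Both feedback genes were higher. TNFAIP3 encodes A20, a ubiquitin-editing enzyme that damps signals to IKK. It was at 47.0 and 45.7 CPM in deprived cells, against 5.29 and 5.92 CPM in control cells, a log2 fold change of 3.05 ± 0.09, or 8.27-fold (edgeR adjusted p = 1.33e-05). BIRC3 encodes cIAP2, a ubiquitin ligase that takes part in TNF receptor signalling and in the breakdown of NIK. It was at 195 and 193 CPM in deprived cells, against 22.1 and 23.0 CPM in control cells, a log2 fold change of 3.10 ± 0.07, or 8.59-fold (adjusted p = 8.64e-06). Replicates of these genes were nearly equal, and the groups did not overlap.

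**Figure D1:**
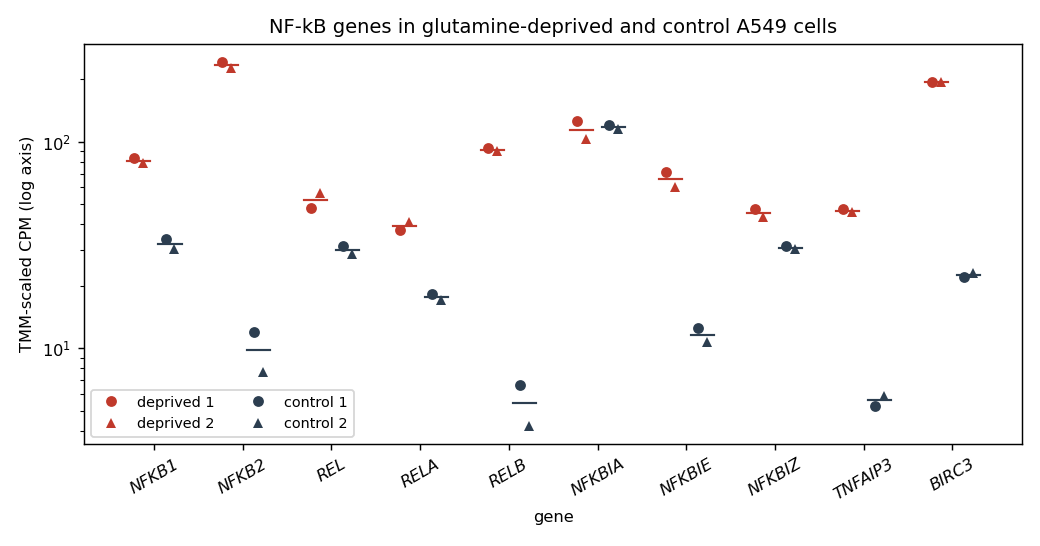
TMM-scaled CPM of the 10 genes in each library on a log axis; circles are replicate 1 and triangles replicate 2, deprived in red to the left and control in dark blue to the right, with a line at each group mean. The deprived points lie above the control points for every gene except NFKBIA, where 125 and 103 CPM in deprived cells bracket 120 and 115 CPM in control cells.

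In all, 9 of the 10 genes were called higher and 0 lower by edgeR, and the remaining gene, NFKBIA, was not called. Among all 24527 tested genes, 25.2% were called higher and 24.4% lower, 49.6% in all, so a call by itself was common in this comparison. With library size only, 8 of the 10 genes were higher and 1 lower, while over all genes 4179 were higher and 8565 lower, against 6174 and 5982 with TMM. The median log2 fold change of the 10 genes was 1.92, against −0.06 over all tested genes. A call with a log2 fold change of at least 2, which NFKB2, RELB, BIRC3, TNFAIP3 and NFKBIE reached, was made for 3.78% of tested genes. Complete separation of the deprived libraries above the controls, seen for the same 9 genes, occurred for 36.1% of tested genes, and separation below them for 40.5%.

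Levels of different genes were compared as TPM, which divide counts by transcript length before scaling to a common total and are not TMM-scaled. The summed TPM of the 5 subunits was 277 and 315 in deprived cells, against 75.8 and 60.4 in control cells. NFKB2 and RELB together made up 69.1% and 66.4% of that sum in deprived cells, against 20.7% and 14.9% in control cells. The order of the subunits therefore differed between the groups. In deprived cells NFKB2 was the most abundant subunit mRNA, at 126 ± 6.92 TPM (SD, n = 2), followed by RELB at 74.0 ± 5.76 TPM. NFKB1, REL and RELA came after them at 34.7 ± 2.06, 31.4 ± 6.84 and 29.7 ± 5.45 TPM. The ranges of mean ± SD of these 3 overlapped, but NFKB1 was above RELA in both deprived libraries (33.2 and 36.2 against 25.9 and 33.6 TPM). In control cells REL was at 22.9 ± 1.69 TPM, NFKB1 at 17.5 ± 2.80 TPM and RELA at 15.3 ± 1.70 TPM, with NFKB2 at 7.18 ± 2.81 TPM and RELB at 5.19 ± 1.92 TPM. There, NFKB1 was above RELA in both libraries (19.5 and 15.5 against 16.5 and 14.1 TPM). NFKB2 was likewise above RELB in both (9.17 and 5.19 against 6.55 and 3.83 TPM). In each pair the ranges of mean ± SD overlapped, and these orders were not tested. The place of REL rests on the length assigned to its mRNA: with the length of the longest coding transcript it was at 8.48 TPM in deprived cells and 6.10 TPM in control cells. With those lengths the joint share of NFKB2 and RELB averaged 74.7% in deprived cells and 24.3% in control cells.

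Among the 3 cytoplasmic IkB genes, NFKBIA held 49.8% and 46.8% of the summed TPM in deprived cells, against 78.4% and 80.1% in control cells. NFKBIE held 15.0% and 14.8% in deprived cells, against 4.15% and 3.78% in control cells. NFKBIB, the gene of IkB beta, held 35.3% and 38.4% in deprived cells, against 17.4% and 16.1% in control cells. The sum was 277 and 274 TPM in deprived cells and 255 and 209 TPM in control cells. NFKBIA was the most abundant of the 3 in every library. Of the other genes, BIRC3 was at 198 ± 16.0 TPM in deprived cells and 20.1 ± 9.98 TPM in control cells, or at 67.8 and 9.93 TPM with the length of its longest coding transcript. TNFAIP3 was the least abundant of the 10 with the transcripts' own lengths, at 18.9 ± 2.33 TPM in deprived cells and 3.84 ± 0.865 TPM in control cells.

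**Figure D2:**
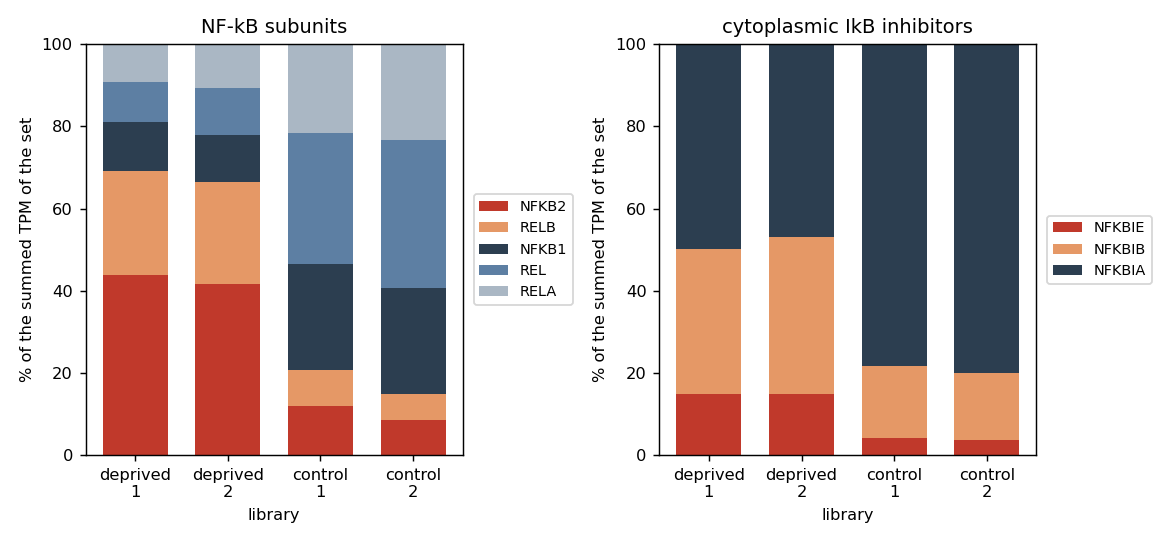
Share of each gene in the summed TPM of the 5 NF-kB subunits (left) and of the 3 cytoplasmic IkB inhibitors (right), 1 bar per library, deprived libraries left of control libraries. NFKB2 and RELB fill 69.1% and 66.4% of the subunit bars in deprived cells, against 20.7% and 14.9% in control cells, and NFKBIA takes a smaller part of the inhibitor bars in deprived cells.

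The promoter windows of the genes are shown because 9 of the 10 genes moved together and because NF-kB is known to act on several of them. RefSeq windows of 300 bases (GRCh38.p14), 250 before and 50 after each annotated start, were given for 8 of the 10 genes; RELB and NFKBIE had no window. The NF-kB consensus, searched by name on both strands, was found in 9 of the 13 windows and in 7 of the 8 genes, the exception being RELA. It was found in 5.91% of all 35116 windows. Stretches of 30 bases around matches are given on the strand of the gene, 5′ to 3′, with matched letters in capitals and overlapping matches joined.
NFKB2, the second start, chr10:102394461-102394490 (+): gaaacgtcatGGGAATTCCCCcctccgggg
NFKB2, the third start, chr10:102395674-102395703 (+): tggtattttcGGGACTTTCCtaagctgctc
NFKB1, chr4:102501300-102501329 (+): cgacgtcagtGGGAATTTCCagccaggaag
REL, chr2:60881517-60881546 (+): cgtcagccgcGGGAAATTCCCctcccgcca
NFKBIZ, upstream start, chr3:101827757-101827786 (+): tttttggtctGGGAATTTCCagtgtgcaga
NFKBIZ, downstream start, chr3:101849265-101849294 (+): gcgcgctgtcGGGGTTTCCCggtgaagggc
TNFAIP3, chr6:137867188-137867217 (+): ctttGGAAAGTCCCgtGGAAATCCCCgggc
The first letter of the match shown lay 107 bases before the second NFKB2 start, 21 before the third start, 49 before the NFKB1 start and 47 before the REL start. A further match, not shown, lay 78 bases before the second NFKB2 start, and another 176 bases before the third start. In TNFAIP3, 2 matches on the opposite strand lay 67 and 55 bases before the start. The matches shown for the second NFKB2 start, REL, the downstream NFKBIZ start and TNFAIP3 lie within annotated exons of the same gene. The match shown for the third NFKB2 start touches such an exon with its last letter. The motifs TGANTCA (AP-1), TGACGTCA (the cAMP response element) and TGATGNAA (the C/EBP-ATF composite), also searched on both strands, were found in 0 of the 13 windows, and in 7.71%, 1.85% and 3.62% of all windows. These matches describe letters only and were not tested for binding.

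BIRC3 and NFKBIA are set side by side because both windows hold the NF-kB consensus, on the strand opposite to the gene, while the RNA of BIRC3 was 8.59-fold higher and that of NFKBIA was not called. The BIRC3 stretch stops before its first annotated exon, and the NFKBIA stretch covers the 250 bases before its start, again with matches in capitals.
BIRC3, chr11:102317234-102317449 (+): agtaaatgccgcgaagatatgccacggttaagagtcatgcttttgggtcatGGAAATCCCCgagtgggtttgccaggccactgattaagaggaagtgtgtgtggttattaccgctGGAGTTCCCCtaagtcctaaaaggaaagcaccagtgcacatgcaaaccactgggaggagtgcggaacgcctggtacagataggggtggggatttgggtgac
NFKBIA, chr14:35404750-35404999 (-): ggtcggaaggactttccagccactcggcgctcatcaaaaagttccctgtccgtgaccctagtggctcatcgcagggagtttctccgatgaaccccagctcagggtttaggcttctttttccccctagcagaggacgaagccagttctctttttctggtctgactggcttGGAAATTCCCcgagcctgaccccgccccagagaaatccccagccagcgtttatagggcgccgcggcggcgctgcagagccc
BIRC3 had 2 matches, 199 and 135 bases before the start, and NFKBIA had 1, at 81 bases.

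NFKB2 (chr10:102394110-102402529, plus strand, GENCODE release 29 on GRCh38) has 3 RefSeq starts, and the estimated counts of its transcripts were grouped by them. Transcripts of the first start, whose window holds no match, were at 37.7 and 72.1 CPM in deprived cells and at 1.15 and 1.02 CPM in control cells. The transcript of the second start, NFKB2-203, was at 177 and 134 CPM in deprived cells and at 3.17 and 0 CPM in control cells. Transcripts of the third start, the most downstream, were at 24.8 and 17.8 CPM in deprived cells and at 7.59 and 6.50 CPM in control cells. The third start thus held 10.2% and 7.84% of the gene's counts in deprived cells, against 63.0% and 84.9% in control cells, and the deprived libraries were above the controls at all 3 starts. These shares rest on the authors' division of reads among transcripts that overlap, which gave control replicate 2 a count of 0 for NFKB2-203 against 362 in control replicate 1.

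NFKBIZ has 2 starts, of which the downstream one held 81.9% and 75.7% of the gene's counts in deprived cells and 78.8% and 73.0% in control cells. It was at 38.6 and 32.6 CPM in deprived cells and at 24.7 and 22.0 CPM in control cells. The upstream start was at 6.62 and 9.10 CPM in deprived cells and at 4.45 and 5.44 CPM in control cells. Groups did not overlap at either start.

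Single transcripts were measured with less precision than genes. Of 101 annotated transcripts of the 10 genes, 100 were in the files and 60 were tested, of which 5 were called higher and 0 lower; over all 83759 tested transcripts 1.12% were called higher and 0.542% lower, 1.67% in all. At an unadjusted edgeR p under 0.05, 27 of the 60 were higher and 1 was lower, against 12.9% and 13% of all tested transcripts. The 5 called were BIRC3-201, NFKB2-204, NFKBIE-204, RELB-202 and the minor transcript NFKB2-202, which held under 5% of its gene's counts. BIRC3-201, the longest BIRC3 mRNA, was at 122 and 142 CPM in deprived cells and at 16.2 and 21.3 CPM in control cells (log2 fold change 2.80 ± 0.21, edgeR adjusted p = 0.0422). NFKBIE-204 was at 60.0 and 53.3 CPM in deprived cells and at 7.65 and 8.79 CPM in control cells (2.76 ± 0.19, adjusted p = 0.0412). RELB-202 was at 37.3 and 39.8 CPM in deprived cells and at 0.849 and 1.64 CPM in control cells (4.93 ± 0.46, adjusted p = 0.0480). With library size only 2 member transcripts were called higher, and with no filter 0. Leaving out 1 library gave log2 fold changes of 2.60 to 2.99 for BIRC3-201 and 2.65 to 2.88 for NFKBIE-204. For RELB-202 they were 4.52 to 5.47, and for NFKB2-204 5.15 to 6.06. Such fits leave 1 library in a group, so they cannot show whether a transcript call holds.

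Of the 31 transcripts that held at least 5% of a gene's counts, 26 had log2 fold changes above 0 and 5 below, and 4 of the 31 were called, as given above. Their counts are part of the gene sums, so these directions are not separate from the gene results. NFKB2-203 (6.59 ± 2.83, edgeR adjusted p = 0.257) and NFKB2-201 (1.51 ± 0.30, adjusted p = 0.0916) were not called. RELB-201 was at 44.8 and 39.4 CPM in deprived cells and at 3.65 and 2.04 CPM in control cells (log2 fold change 3.86 ± 0.40, edgeR adjusted p = 0.0509). BIRC3-202, a short transcript of 624 bases, was at 72.9 and 50.1 CPM in deprived cells and at 5.84 and 1.62 CPM in control cells (4.02 ± 0.80, adjusted p = 0.0917). Its log2 fold change was 5.22 without control replicate 1 and 3.36 without control replicate 2. RELA-205, which held 46.7% of the RELA counts in deprived cells and 75.9% in control cells, was at 20.3 and 16.4 CPM in deprived cells and at 13.5 and 13.6 CPM in control cells (0.42 ± 0.22, adjusted p = 0.331). The NFKBIA transcripts NFKBIA-201, NFKBIA-208 and NFKBIA-209 had log2 fold changes of 0.18 ± 0.32, −0.0080 ± 0.20 and −0.05 ± 0.26, and none was called. NFKBIA-210 was at 4.10 and 2.67 CPM in deprived cells and at 8.09 and 5.26 CPM in control cells (−0.999 ± 0.43, edgeR adjusted p = 0.255). NFKBIZ-203 had a log2 fold change of −0.30 ± 0.40, which was 0.032 without deprived replicate 1, and TNFAIP3-210 one of −1.04 ± 1.35, which was 1.85 without control replicate 1.

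**Figure D3:**
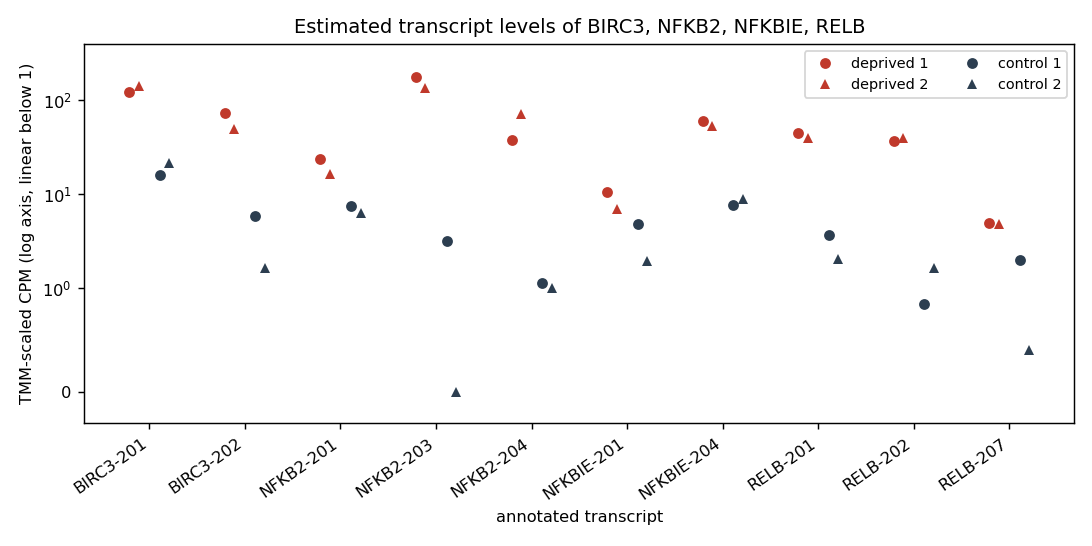
TMM-scaled CPM of the transcripts with at least 5% of the counts of BIRC3, NFKB2, NFKBIE and RELB, on an axis that is logarithmic above 1 and linear below; red is deprived, dark blue is control, circles are replicate 1 and triangles replicate 2. Deprived points lie above control points for each transcript shown, while the controls of NFKB2-203 spread from 0 to 3.17 CPM.

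The rest of the pathway was read from 4 lists of genes. For comparison, 25.2% of all tested genes were called higher and 24.4% lower. With library size only, 4179 of all tested genes were higher and 8565 lower. The 20 other genes listed as inhibitors or negative regulators included 12 called higher, 3 lower and 5 not called, with a median log2 fold change of 0.39. Being listed does not mean that a gene only inhibits NF-kB. With library size only, 8 of them were higher and 6 lower. Among them CYLD, a deubiquitinase that removes the chains needed for IKK activation, rose by 1.84 ± 0.07 on the log2 scale (edgeR adjusted p = 1.58e-05), and NFKBIB rose by 1.64 ± 0.08. CYLD was at 144 and 144 CPM in deprived cells, against 40.3 and 39.9 CPM in control cells. The other named members were RNF11 and TAX1BP1, partners of A20, at 1.27 ± 0.08 and 0.65 ± 0.06, OTUD7B, a deubiquitinase known to act on TRAF3, at 1.35 ± 0.10, and PDLIM2, a ligase for RELA, at 1.13 ± 0.12. The 3 genes called lower, named after their values were seen, were NFKBID (−1.13 ± 0.18), BCL3 (−0.56 ± 0.12) and ZC3H12A (−0.53 ± 0.10).

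Kinases, adaptors and ubiquitin ligases listed as activating NF-kB, the IKK subunits among them, moved both ways. Of 32, 16 were called higher, 12 lower and 4 not, with a median of 0.29. With library size only, 11 were higher and 14 lower. Fewer genes were called lower when any library was left out, both in this list and over all tested genes. MAP3K14, which encodes NIK, the kinase of the noncanonical pathway, was at 205 and 193 CPM in deprived cells, against 34.4 and 31.8 CPM in control cells (2.59 ± 0.08, edgeR adjusted p = 1.33e-05). TRAF2 and BIRC2, which encode parts of the complex that marks NIK for breakdown, were higher as well, by 1.98 ± 0.10 and 1.97 ± 0.08. TRAF1, a known NF-kB target and partner of TRAF2, was at 84.2 and 75.1 CPM in deprived cells, against 5.19 and 4.69 CPM in control cells (4.01 ± 0.10). IRAK2, a kinase of interleukin 1 and Toll-like receptor signalling, and BCL10, an adaptor that acts with MALT1, rose by 2.67 ± 0.09 and 1.39 ± 0.08. These 6 genes had the smallest p of the list and were all higher, although 12 of its genes were lower. Picked after their values were seen, 2 partners of these proteins were among the lower genes. MALT1 was at 93.0 and 84.4 CPM in deprived cells, against 158 and 150 CPM in control cells (−0.79 ± 0.08, edgeR adjusted p = 0.000413), and IRAK4, a kinase upstream of IRAK2, was at 17.2 and 15.7 CPM in deprived cells, against 28.7 and 28.6 CPM in control cells (−0.80 ± 0.09, adjusted p = 0.000650).

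Of the 31 receptors and ligands, 28 were tested, with 7 higher, 14 lower, 7 not called and a median of −0.57. Over all tested genes, 25.2% were called higher and 24.4% lower, so higher calls were no more common in this list. TNFRSF12A, the receptor of TWEAK, was at 858 and 737 CPM in deprived cells, against 37.9 and 36.7 CPM in control cells (4.42 ± 0.11, edgeR adjusted p = 8.64e-06). The TRAIL receptors TNFRSF10B and TNFRSF10A rose by 2.59 ± 0.09 and 1.81 ± 0.07, IL1RAP, the accessory chain of the interleukin 1 receptor, by 2.30 ± 0.08, and EDA2R, a receptor of ectodysplasin A2, by 1.82 ± 0.09. These were the higher genes among the 6 with the smallest p. The remaining gene of the 6, TNFSF15, a ligand of the TNF family, was lower, at 9.05 and 8.43 CPM in deprived cells, against 84.4 and 83.5 CPM in control cells (−3.26 ± 0.08). Since most calls in this list were lower, 2 more receptors were picked after their values were seen. TNFRSF1A, the main receptor of TNF, was at 120 and 114 CPM in deprived cells, against 331 and 321 CPM in control cells (−1.48 ± 0.07, edgeR adjusted p = 3.41e-05). IL1R1, the interleukin 1 receptor chain that pairs with IL1RAP, was at 61.4 and 58.2 CPM in deprived cells, against 97.0 and 98.4 CPM in control cells (−0.71 ± 0.07, adjusted p = 0.000361). The untested genes were NOD2, TNF and LTA, and TNF was at 0.0574 and 0 CPM in deprived cells and at 0 CPM in both control libraries.

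Of 38 other NF-kB targets, 34 were tested, with 16 higher, 6 lower, 12 not called and a median of 0.41; with library size only, 14 were higher and 10 lower. CXCL8, the neutrophil chemokine interleukin 8, was at 195 and 170 CPM in deprived cells, against 3.91 and 3.90 CPM in control cells (5.54 ± 0.11, edgeR adjusted p = 8.64e-06). GADD45B, an early stress gene that also restrains JNK signalling, was at 243 and 190 CPM in deprived cells, against 6.27 and 6.88 CPM in control cells (5.04 ± 0.15). KLF6, PLK3 and CFLAR rose by 2.55 ± 0.08, 2.21 ± 0.09 and 1.57 ± 0.07, while MAP3K8, the kinase TPL2, fell by 2.83 on the log2 scale (SE 0.13). Named after their values were seen, the other genes called lower were PTGS2 (−1.24 ± 0.07), C3 (−1.08 ± 0.08), CD44 (−1.05 ± 0.08), CSF1 (−0.67 ± 0.08) and CXCL5 (−0.25 ± 0.08). Genes not called included CXCL1 (0.14 ± 0.16), CCL2 (0.29 ± 0.14) and SOD2 (−0.03 ± 0.11). IL6, picked after its values were seen because it had no control count, was at 1.72 and 1.93 CPM in deprived cells and at 0 CPM in both control libraries, at least 68.2-fold higher if each control library held 3 counts. Taking IL6 at that bound leaves the median of the list at 0.41.

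**Figure D4:**
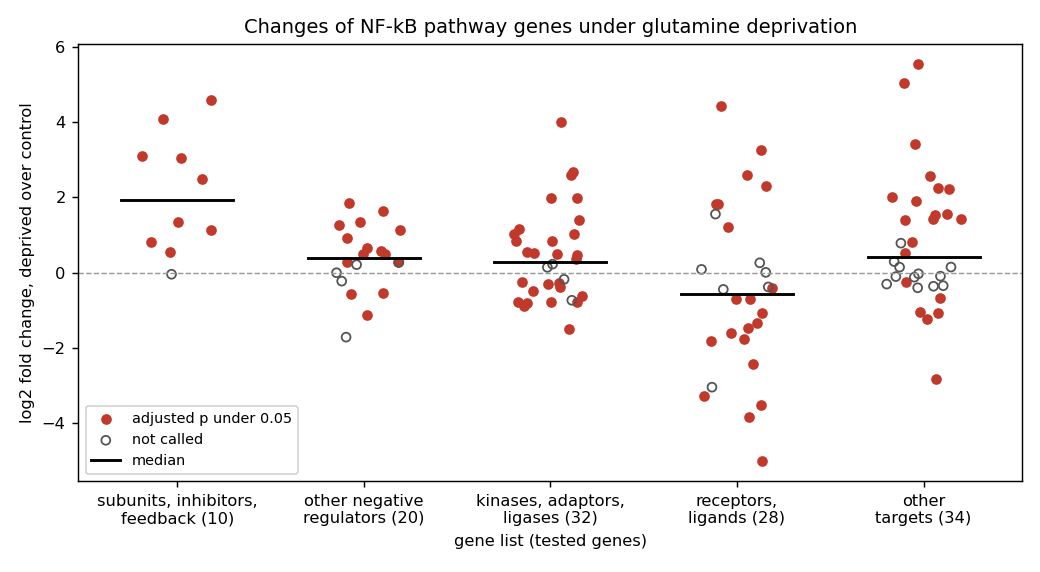
Log2 fold change, deprived over control, of the tested genes of the 5 lists; filled red points passed an edgeR adjusted p of 0.05, open points did not, and bars are medians, with IL6 in the median but not drawn because its controls are at 0. The 10 subunit, inhibitor and feedback genes have a median of 1.92, and the receptors and ligands have a median of −0.57.

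The protein-coding genes whose pattern over the 4 libraries was nearest to that of NFKB2 were found by Euclidean distance between centred log2 CPM, among 9518 genes with a mean of at least 10 CPM. The nearest 5 were DUSP8, ZNF699, MARCHF4, TNFRSF9 and CSRNP1, at distances of 0.237, 0.348, 0.387, 0.411 and 0.424. Their likeness to NFKB2 over these libraries follows from how they were picked. DUSP8, a phosphatase of MAP kinases, was at 32.0 and 33.9 CPM in deprived cells and at 1.40 and 0.880 CPM in control cells. TNFRSF9, the costimulatory receptor 4-1BB, was at 26.1 and 24.6 CPM in deprived cells and at 0.901 and 0.753 CPM in control cells.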

How the data were processed

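Poly-A RNA of 4 A549 libraries, 2 deprived and 2 control, was sequenced; per the submitters' processing notes HISAT2 2.0.5, featureCounts 1.5.0-p3, DESeq2 1.20.0 and build hg38 were used, with no role stated. The authors deposited whole-number estimated counts for 229420 transcripts; which program split reads between transcripts, and on what annotation, is not given in the sources used here, nor is the use of strand. Counts were summed to genes with GENCODE release 29, which matched 205306 IDs and 98.0% to 98.2% of counts; the 24114 other IDs were left out, so some sums may be partial. Genes and transcripts were filtered with filterByExpr, scaled with TMM (0.862 and 0.919 deprived, 1.15 and 1.10 control) and tested with edgeR 4.0.16 in R 4.3.3 (quasi-likelihood, two-sided, Benjamini-Hochberg over all tested features, threshold 0.05), a procedure tested on simulated counts. The SE is the absolute log2 fold change over the square root of F. The common biological coefficient of variation was 0.210, and each of the 10 genes had 467 to 25262 counts per library. Replicates differed beyond counting noise (chi-square per degree of freedom 48.8 deprived, 34.7 control). TPM used deposited counts and annotated transcript lengths. Alternatives were other scalings and filters, DESeq2 1.42.0, limma 3.58.1 voom, leaving out each library, the replicate number as a block, and protein-coding transcripts only. Named were all 10 genes, up to 6 genes of each other list with the smallest p, the 5 genes nearest to NFKB2 and transcripts with at least 5% of a gene's counts. The genes, lists and tests were chosen with earlier results of these data known. A deposited table of long non-coding RNAs was not used.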

Additional observations from a re-analysis of the deposited data

How the results depend on the processing

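NFKB1, NFKB2, REL, RELA, RELB, NFKBIE, TNFAIP3 and BIRC3 were called higher under all 13 alternatives, with log2 fold changes between 0.47 (REL) and 4.93 (NFKB2). With library size only, NFKBIZ was no longer called (0.21) and NFKBIA was called lower (−0.38), so that 1 of the 10 genes was lower; the lower counts became 6 for the other negative regulators and 10 for the targets. That scaling moved the median of all genes to −0.40, against −0.06. Leaving out 1 library gave NFKBIA values of −0.19 to 0.11. Fewer kinases and adaptors were then called lower, as were fewer of all tested genes, and the cause was not tested. The higher count of the other negative regulators was 8 with no filter and 14 with DESeq2, against 12. Over all tested genes the higher counts were 5477 and 6420, against 6174. Transcript calls, 5 in the fit as reported, numbered 2 with library size only and 0 with no filter. Leaving out 1 library leaves 1 library in a group, so those fits cannot show whether a transcript call holds. Longest coding lengths moved the NFKB2 and RELB share to 74.7% (deprived) and 24.3% (control). With library size only NFKBIA-201 was at −0.12, and with no filter NFKBIA-208 was at 0.019. Leaving out 1 library gave −0.13 to 0.48 for NFKBIA-201, −0.19 to 0.20 for NFKBIA-208, −0.37 to 0.25 for NFKBIA-209, −0.67 to 0.032 for NFKBIZ-203 and −1.96 to 1.85 for TNFAIP3-210. Replicate numbers were shared between groups, and the replicate differences of the groups were hardly correlated over genes (−0.04). That value does not show whether the libraries were prepared in pairs. With the replicate block, 9 of the 10 genes were again higher and the transcript calls fell to 0; the block changed no other call of the 10 genes. With 2 libraries a group, differences like that of NFKBIA (SE 0.11) cannot be resolved.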

Other observations

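The genes next to the NF-kB genes did not all move with them. Beside RELB, CLASRP was at 33.6 and 27.2 CPM in deprived cells and at 11.0 and 10.3 CPM in control cells (log2 fold change 1.51 ± 0.13, edgeR adjusted p = 0.000216). Beside NFKBIE, HSP90AB1 fell by 0.84 (SE 0.10) and SLC35B2 by 0.64 (SE 0.10) on the log2 scale. Beside NFKBIZ, NXPE3 was at 53.5 and 52.1 CPM in deprived cells and at 129 and 126 CPM in control cells (−1.27 ± 0.07), and beside RELA, SIPA1 was at 12.4 and 12.4 CPM in deprived cells and at 30.8 and 30.2 CPM in control cells (−1.30 ± 0.08). HSP90AB1, SLC35B2, NXPE3 and SIPA1 lay opposite in direction to their NF-kB neighbour. Genes whose annotated exons overlap those of REL, RELA and TNFAIP3 (ENSG00000267520, RELA-DT and WAKMAR2) were under 1 CPM in every library.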
